A study of Mus musculus with 2 samples.

Results

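The 10 imprinted genes described here are Meg3, Rian, Mirg, Cdkn1c, Grb10 and H19, which most tissues express from the maternal copy, and Peg10, Peg3, Snrpn and Impact, expressed from the paternal copy. They were chosen by symbol with earlier results of these data known, and all 10 of them were among the 33670 gene symbols of the deposited matrices. Embryoid bodies, clumps of stem cells grown in suspension that begin to differentiate, were made from J1 cells, a male mouse embryonic stem cell line, and were given dTAG13 or its solvent control DMSO over 2 days. dTAG13 is a small molecule that directs proteins carrying an FKBP12(F36V) tag to degradation; the title names Tex10, and which protein carries the tag is not given in the labels. Trypsin-dissociated cells of each group went into 1 Chromium 3′ library, and the labels give neither the number of embryoid bodies nor a clone name.

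Imprinted genes are expressed mainly from the copy inherited from one parent. The choice is set by DNA methylation laid down at control regions in egg or sperm, and in the early embryo it is kept by zinc finger proteins such as ZFP57, which bind the methylated copy and recruit TRIM28 and DNMT1. Many imprinted genes act on growth and on the placenta, and Meg3, Rian and Mirg are non-coding RNA genes that lie in a row on chromosome 12 and are transcribed in the same direction from the maternal copy. The counts are per gene, so the parental origin of the transcripts was not measured, and maternal and paternal here are classes from general knowledge.

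Windows at annotated start sites differed in CpG content among the members, and the Meg3 cluster is shown in full with Grb10 set beside it. RefSeq windows (250 bases before to 50 after the annotated start, build GRCm38.p6) matched 6 of the 10 members: Meg3, Rian, Mirg, Grb10, Peg3 and Snrpn. They were searched on both strands for TGCCGC, the hexamer that ZFP57 binds when methylated. It is in capitals below, where its complement reads GCGGCA, and 11.6% of all 32851 windows held it. The Meg3 window (chr12:109540746-109541045, plus strand) held 13 CpG and 1 hexamer, the Rian window (chr12:109603695-109603994, plus strand) held 0 CpG and 0 hexamers, and the Mirg window (chr12:109734731-109735030, plus strand) held 10 CpG and 0 hexamers. The Grb10 window (chr11:12037371-12037670, minus strand) held 45 CpG and 1 hexamer; the median over all windows was 7 CpG.
Meg3: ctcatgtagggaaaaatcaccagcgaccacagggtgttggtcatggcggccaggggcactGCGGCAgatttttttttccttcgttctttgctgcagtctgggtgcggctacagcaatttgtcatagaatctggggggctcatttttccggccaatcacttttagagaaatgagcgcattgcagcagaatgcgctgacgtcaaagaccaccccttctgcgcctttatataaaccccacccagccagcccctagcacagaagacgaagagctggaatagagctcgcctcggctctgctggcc
Rian: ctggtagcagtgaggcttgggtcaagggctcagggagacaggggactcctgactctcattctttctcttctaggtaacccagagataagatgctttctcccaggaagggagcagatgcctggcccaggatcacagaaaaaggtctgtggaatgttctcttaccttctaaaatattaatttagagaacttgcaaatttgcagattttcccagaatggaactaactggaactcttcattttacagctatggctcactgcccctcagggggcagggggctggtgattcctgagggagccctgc
Mirg: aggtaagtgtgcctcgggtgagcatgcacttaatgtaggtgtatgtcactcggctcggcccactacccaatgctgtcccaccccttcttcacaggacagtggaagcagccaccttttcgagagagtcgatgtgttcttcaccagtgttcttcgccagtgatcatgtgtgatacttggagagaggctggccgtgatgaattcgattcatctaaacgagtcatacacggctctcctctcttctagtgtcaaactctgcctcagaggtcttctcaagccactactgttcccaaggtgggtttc
Grb10: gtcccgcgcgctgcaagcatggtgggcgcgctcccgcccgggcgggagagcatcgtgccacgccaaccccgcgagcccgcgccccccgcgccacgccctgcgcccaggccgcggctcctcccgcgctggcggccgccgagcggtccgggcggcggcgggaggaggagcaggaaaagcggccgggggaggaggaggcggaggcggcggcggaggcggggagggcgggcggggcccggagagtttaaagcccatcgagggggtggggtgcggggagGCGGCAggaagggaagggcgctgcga
Among the other windows, the second Meg3 start had 1 CpG, the second Grb10 start 9 and the Peg3 start 13, all with 0 hexamers, and the 4 Snrpn starts had 2, 3, 4 and 7 CpG, with 1 hexamer in the last of them. A match is only a run of letters, an annotated start need not be an active promoter, and neither promoter activity nor methylation was measured. RefSeq also places microRNA hairpins within these transcripts: 1 in Meg3, 3 in Rian, 10 in Mirg and 1 in H19.

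Cells were kept when they had 500 or more detected genes and no more than 10% of UMIs from the mitochondrial genome (UMIs are unique molecular identifiers, counted once per captured transcript). This left 11588 dTAG13 and 17878 DMSO cells with 91808969 and 117189816 UMIs. The median cell held 7072.5 UMIs in the dTAG13 library and 6014 in the DMSO library, and 64 cell barcodes occurred in both libraries. Tex10 mRNA was at 64.7 CPM (counts scaled to a common library total) with dTAG13 and 81.3 CPM with DMSO, which does not check the loss of a protein. Both libraries carried naive and shared pluripotency markers: the 12 naive markers summed to 7741 CPM with dTAG13 and 8923 CPM with DMSO, and the 6 shared markers to 1991 and 2202 CPM. Markers of other cell types also differed. The 6 fibroblast feeder markers, 1 of them at 5 CPM or more, summed to 86.4 CPM with dTAG13 and 28.4 CPM with DMSO (Col3a1 and Postn at 0 in both). That 1 was Tagln, a leading gene of the keratin cluster described below, at 247 CPM there and 37.4 CPM in all other cells. The feeder sum therefore cannot be read as a measure of feeder cells. The 8 extraembryonic endoderm markers summed to 270 and 186 CPM. The 11 trophoblast markers summed to 208 CPM in each library. Of these, Krt18 and Krt8 are leading genes of the keratin cluster, at 124 and 107 CPM there. Rhox9 and Rhox6 lead another cluster, at 255 and 252 CPM, which held 212 dTAG13 and 3937 DMSO cells. Equal sums therefore do not show equal numbers of trophoblast cells. The part of these other cell types in the results was not tested. With 1 library per group there is no replicate check and no test. Intervals are given at 95% and reflect counting error alone, and for a sum over cells, fewer expressing cells and less RNA per cell cannot be told apart.

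Of the 10 members, 9 reached 5 CPM in either library or both. Of these 9, 7 were higher with dTAG13 by 1.5-fold or more and 0 were lower by as much; among all 8817 genes at that level, 14.2% were higher and 5.4% lower by this fold. The median log2 ratio, dTAG13 over DMSO, was 0.85 for the 9 members and 0.09 for all genes. Because the members were chosen with earlier results of these data known, these contrasts do not test imprinted genes as a class. All 5 measured maternal members were past 1.5-fold (median log2 ratio 0.89), as were 2 of the 4 paternal members (median 0.59). H19 was not measured at this level.

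**Figure D1:**
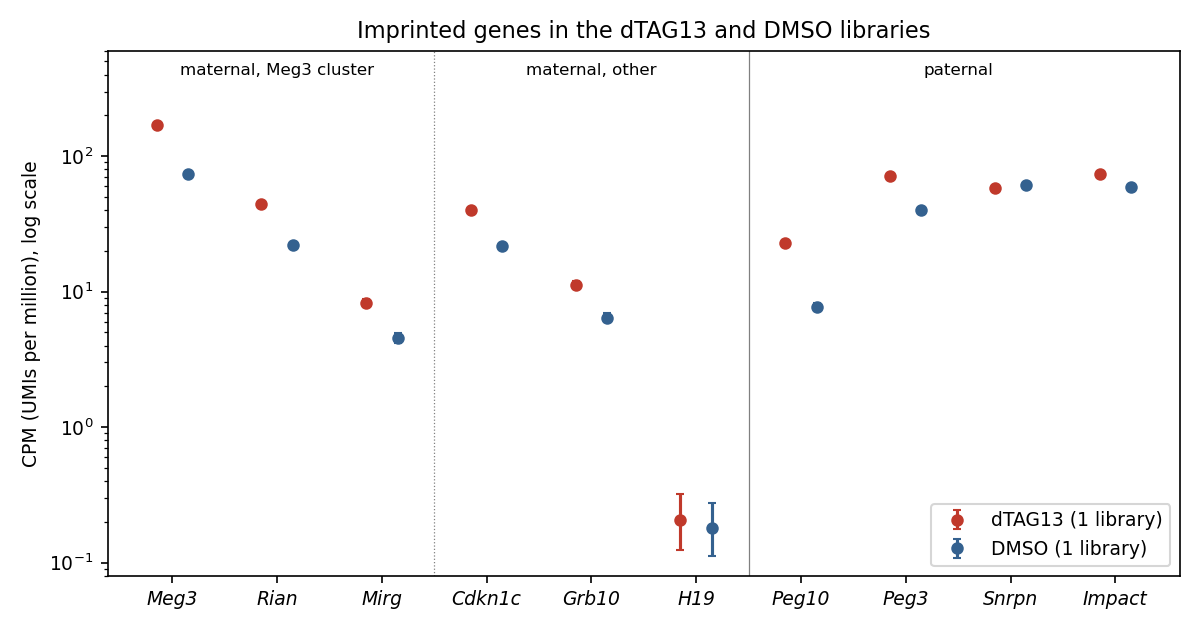
CPM of the 10 genes in the dTAG13 library (red) and the DMSO library (blue) on a log scale, with exact Poisson 95% intervals, grouped as maternal genes of the Meg3 cluster, other maternal genes and paternal genes. From Meg3 to Grb10, and for Peg10 and Peg3, the dTAG13 point lies above the DMSO point with intervals that do not overlap, while the H19 intervals overlap and Snrpn lies slightly lower with dTAG13.

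The 3 non-coding genes of the Meg3 cluster were all higher with dTAG13. Meg3 (ENSMUSG00000021268), a long non-coding RNA and the first gene of the row, was at 169 CPM (15530 UMIs, interval 167 to 172) with dTAG13 and 73.6 CPM (8631 UMIs, 72.1 to 75.2) with DMSO. Its ratio was 2.30 (2.24 to 2.36). Rian (ENSMUSG00000097451), which hosts C/D box small nucleolar RNAs, was at 44.4 CPM (43.0 to 45.8) with dTAG13 and 21.9 CPM (21.1 to 22.8) with DMSO, a ratio of 2.02 (1.92 to 2.13). Mirg (ENSMUSG00000097391), the microRNA host whose window is printed above, had 755 UMIs (8.22 CPM) with dTAG13 and 535 UMIs (4.57 CPM) with DMSO, a ratio of 1.80 (1.61 to 2.02). The 3 intervals lay above 1.5. The Meg3 interval lay above those of Rian and Mirg, and the Rian and Mirg intervals overlapped.

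The protein-coding genes on the paternal copy of the same domain had few UMIs. Dlk1, a Notch-like membrane protein gene, was at 0.577 CPM with dTAG13 and 0.717 CPM with DMSO, a ratio of 0.805 (0.560 to 1.15). Rtl1, a retrotransposon-derived gene, had 11 UMIs with dTAG13 and 5 with DMSO. Dio3, which inactivates thyroid hormone, was at 1.72 and 1.14 CPM, a ratio of 1.51 (1.19 to 1.91). These 3 genes were chosen after their values were seen, because they share the domain.

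Of the other maternal members, Cdkn1c and Grb10 were higher with dTAG13 and H19 was close to absent. Cdkn1c (ENSMUSG00000037664), which encodes the cyclin-dependent kinase inhibitor p57, was at 40.3 CPM (39.0 to 41.6) with dTAG13 and 21.8 CPM (20.9 to 22.6) with DMSO, a ratio of 1.85 (1.76 to 1.94). Grb10 (ENSMUSG00000020176), an adaptor that limits insulin receptor signalling, was at 11.2 CPM (10.5 to 11.9) with dTAG13 and 6.43 CPM (5.97 to 6.90) with DMSO, a ratio of 1.74 (1.58 to 1.91). Grb10 is known to use a paternal promoter in neurons, which these counts do not separate. H19 (ENSMUSG00000000031), a non-coding RNA abundant in fetal and placental tissue, had 19 UMIs with dTAG13 and 21 UMIs with DMSO, and the interval of its ratio (0.587 to 2.26) covers both directions. Igf2, the growth factor gene that shares its control region, had 19 and 22 UMIs; it was named after its values were seen.

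The paternal members were split. Peg10 (ENSMUSG00000092035), a retrotransposon-derived gene needed for the placenta, had the highest ratio of the 10: 23.0 CPM (22.0 to 24.0) with dTAG13 and 7.69 CPM (7.19 to 8.21) with DMSO, a ratio of 2.99 (2.77 to 3.24). Sgce, its neighbour expressed from the shared start region and named after its values were seen, had 311 UMIs with dTAG13 and 68 with DMSO. Peg3 (ENSMUSG00000002265), a zinc finger gene, was at 72.0 CPM (70.3 to 73.7) with dTAG13 and 40.0 CPM (38.8 to 41.1) with DMSO, a ratio of 1.80 (1.73 to 1.87).

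Impact and Snrpn did not reach 1.5-fold. Impact (ENSMUSG00000024423), whose protein restrains the amino acid sensing kinase GCN2, was at 74.3 CPM (72.5 to 76.1) with dTAG13 and 58.8 CPM (57.4 to 60.2) with DMSO, a ratio of 1.26 (1.22 to 1.31). Snrpn (ENSMUSG00000102252), a component of the spliceosome, was at 58.0 CPM (56.4 to 59.5) with dTAG13 and 61.4 CPM (60.0 to 62.8) with DMSO, a ratio of 0.944 (0.911 to 0.978). Snurf, which overlaps Snrpn, had 0 UMIs in both libraries, so reads of the shared transcript may be counted under Snrpn alone. The Snrpn ratio lay above 1 in 2 of 13 settings tried for cells and scaling, so its direction is not settled.

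The same classes were looked at in a wider list of 59 imprinted genes that includes the 10, of which 26 were measured at 5 CPM or more. In the list, 10 genes were at least 1.5-fold higher with dTAG13 and 0 lower, with a median log2 ratio of 0.41. Without the 10 members, 3 of 17 measured genes were as much higher, 0 were lower and the median was 0.08, against 14.2% higher, 5.4% lower and a median of 0.09 for all genes. The count of 3 in 17 is near that share of all genes. The 3 were maternal: Ascl2, a trophoblast transcription factor gene, at 5.93 CPM with dTAG13 and 0.777 CPM with DMSO (ratio 7.63, 6.10 to 9.64); Blcap at 5.84 and 2.99 CPM (1.95, 1.71 to 2.24); and Igf2r, which clears IGF2 from the cell surface, at 20.2 and 11.2 CPM (1.80, 1.67 to 1.93). Of the paternal genes, Zdbf2 was at 93.6 CPM with dTAG13 and 66.0 CPM with DMSO (ratio 1.42, 1.38 to 1.46) and Inpp5f, a phosphoinositide phosphatase gene, at 10.9 and 7.82 CPM (1.39, 1.27 to 1.52). Kcnq1ot1, the non-coding RNA of the domain that holds Cdkn1c, was at 215 and 222 CPM, a ratio of 0.970 (0.952 to 0.988).

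**Figure D2:**
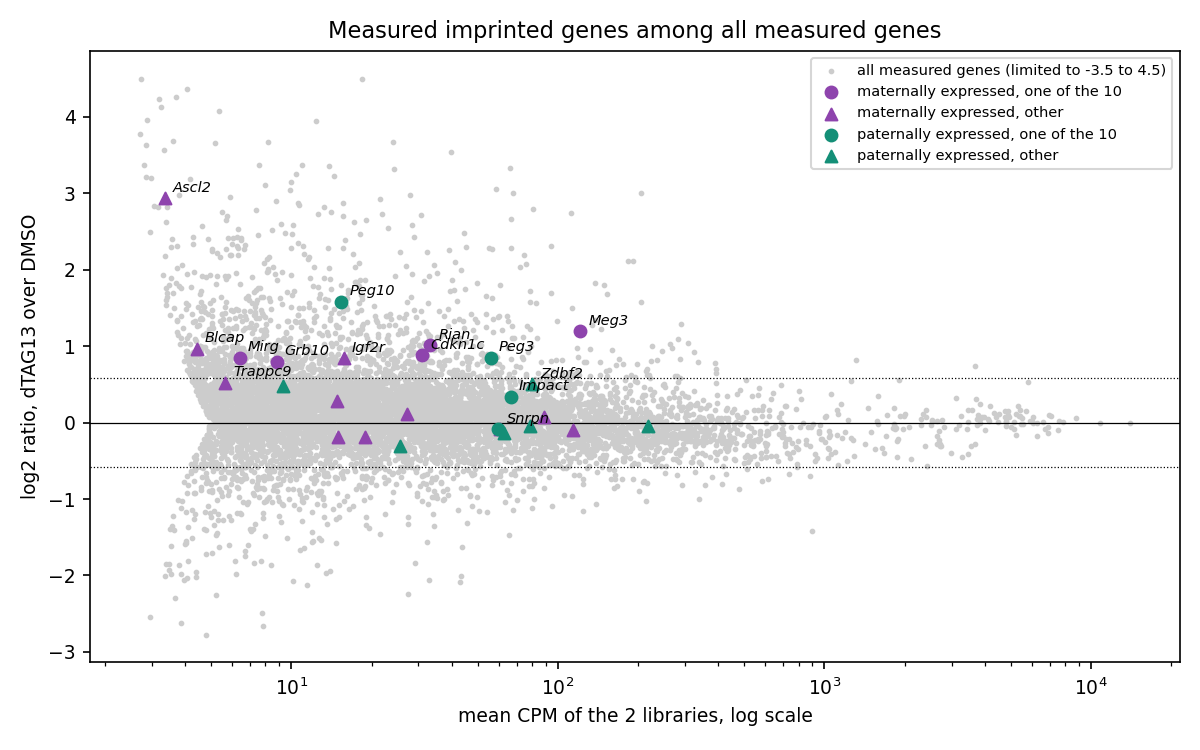
Log2 ratio of dTAG13 over DMSO against the mean CPM of both libraries (log scale) for all measured genes (grey, limited to the range in the legend) and for the 26 measured imprinted genes, maternal in purple and paternal in green, with circles for the 10 members and triangles for others. Dotted lines mark 1.5-fold; 7 of the circles lie above the upper line and 0 imprinted genes lie below the lower one.

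In a list of 11 genes that keep or set imprints, all measured, 2 had a ratio of dTAG13 over DMSO above 1, beside 60.3% of all genes. Of the 11, 1 was at least 1.5-fold higher with dTAG13 and 3 were as much lower, beside 14.2% higher and 5.4% lower for all genes. The median log2 ratio was -0.09, beside 0.09 for all genes. The 4 with the largest ratios in either direction were Uhrf1, which brings DNMT1 to replicated DNA, at 42.6 CPM with dTAG13 and 71.5 CPM with DMSO (ratio 0.595), Trim28 at 118 and 197 CPM (0.598), Zfp57 at 47.9 and 74.5 CPM (0.643) and Dnmt3l, the cofactor of de novo methylation, at 39.7 and 24.6 CPM (1.62). Dnmt1, chosen after its values were seen, was at 171 CPM with dTAG13 and 181 CPM with DMSO. How these levels relate to the members was not tested.

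Per cell, the higher sums came with more cells holding a UMI. Cells were thinned to 3900 UMIs each so that depth was equal, which left 10815 dTAG13 and 16123 DMSO cells and set aside 773 and 1755 shallower ones. A Meg3 UMI was found in 37.2% (36.3 to 38.2) of dTAG13 cells and 21.0% (20.4 to 21.7) of DMSO cells (51.0% and 29.2% before thinning). At least 3 Meg3 UMIs were in 6.59% of dTAG13 cells and 1.25% of DMSO cells. Rian was found in 14.8% and 7.52% of cells (24.9% and 11.9% before thinning), Mirg in 2.89% and 1.74% (5.90% and 2.89%), Cdkn1c in 9.83% and 5.99% (16.4% and 8.92%) and Grb10 in 3.94% and 2.26% (7.33% and 3.66%).

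Of the paternal genes, Peg10 was found in 6.01% of dTAG13 and 2.29% of DMSO cells after thinning (10.6% and 3.83% before), Peg3 in 19.95% and 13.02% (31.1% and 19.5%) and Impact in 23.7% and 19.5% (39.4% and 29.5%). Snrpn was found in 19.2% and 21.0% of thinned cells, but in 32.9% and 31.0% before thinning, so its order depends on depth. H19 was found in 8 dTAG13 and 7 DMSO cells. No cell type known to lack these RNAs was defined, so the share from free RNA was not measured. Among thinned DMSO cells the share with a Meg3 UMI was 8.76% in the cluster with the lowest Meg3 CPM (cells with a median of 5224 UMIs) and 34.3% in that with the highest (5603 UMIs), of clusters with at least 50 cells.

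Scatter between cells differed among the genes. At equal depth, a gene with the same chance of capture in every cell has a variance equal to its mean, a ratio of 1. That ratio was 1.93 with dTAG13 and 1.39 with DMSO for Meg3, 2.23 and 2.95 for Cdkn1c, 2.02 and 1.76 for Peg10, and 1.55 and 1.24 for Peg3. Snrpn, at 1.09 and 1.04, and Impact, at 1.15 and 1.07, were nearly evenly spread. The 1% of cells with the most UMIs of each gene held 27.1% of all Cdkn1c UMIs with dTAG13 and 35.9% with DMSO, and 31.4% and 44.0% of Peg10 UMIs. Such shares are also high for genes with few UMIs: Mirg had 24.8% and 37.0% and Grb10 26.9% and 36.9%, with variance ratios of 1.07 and 1.04 for Mirg and 1.14 and 1.16 for Grb10.

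Members were found together in the same cells to unequal degrees. With dTAG13, Rian was found in 24.9% of cells with a Meg3 UMI and in 8.84% of cells without one; with DMSO the shares were 14.5% and 5.67%. Mirg was found in 4.97% and 1.66% of those dTAG13 cells and in 3.30% and 1.33% of those DMSO cells. Peg10 was found in 12.6% of cells with a Cdkn1c UMI and 5.29% without with dTAG13, and in 6.84% and 1.999% with DMSO. Snrpn differed less, at 22.3% of cells with Meg3 and 17.3% without with dTAG13, and 21.7% and 20.8% with DMSO. All 3 Meg3 cluster genes had a UMI in 0.638% of dTAG13 cells and 0.118% of DMSO cells, and at least 3 of the 10 members in 17.2% and 6.81%. Such shares come from cells of 1 library, which share its free RNA and are not replicates.

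Cells were grouped by their Meg3 UMIs (0, 1, 2 or at least 3), and 6 genes, Rian, Mirg, Cdkn1c, Peg3, Snrpn and Impact, had a higher CPM in each next group in both libraries. Some single steps were within counting error. From 1 to 2 Meg3 UMIs with DMSO, the intervals were 6.41 to 10.0 and 5.73 to 13.8 CPM for Mirg. For Snrpn they were 60.5 to 70.6 and 55.8 to 76.7 CPM. Rian was at 25.05, 59.9, 78.5 and 142 CPM with dTAG13 and at 15.8, 37.4, 53.2 and 72.7 CPM with DMSO, from the fewest Meg3 UMIs to the most. Mirg was at 4.42, 9.53, 15.7 and 23.7 CPM with dTAG13 and at 3.44, 8.07, 9.14 and 17.9 CPM with DMSO. Cdkn1c was at 28.3, 42.2, 54.4 and 71.6 CPM with dTAG13 and at 18.1, 28.4, 44.5 and 70.2 CPM with DMSO, so in cells with at least 3 Meg3 UMIs the libraries' Cdkn1c intervals overlap. Peg10 was at 43.5 CPM with dTAG13 and 12.8 CPM with DMSO in those cells. Snrpn was at 50.5, 61.6, 68.8 and 79.8 CPM with dTAG13 and at 60.6, 65.4, 65.7 and 81.6 CPM with DMSO, so a climb with Meg3 was not limited to its cluster. Rian in cells with 0 Meg3 UMIs was still higher with dTAG13, 25.05 CPM (23.2 to 27.0), than with DMSO, 15.8 CPM (14.7 to 17.0). Naive marker UMIs per cell moved with the grouping, at means of 4.99, 4.39, 3.88 and 3.26 with dTAG13 and 6.59, 6.27, 5.81 and 5.23 with DMSO. The share of cells called G1 moved with it in dTAG13 cells, at 12.6%, 18.0%, 26.3% and 38.4%, against 1.33%, 1.20%, 0.810% and 0.995% of DMSO cells, and p53 target UMIs averaged 9.47, 9.82, 10.4 and 10.9 with dTAG13 and 2.83, 2.82, 2.74 and 3.16 with DMSO. The part of these measures in the members' levels was not tested.

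**Figure D3:**
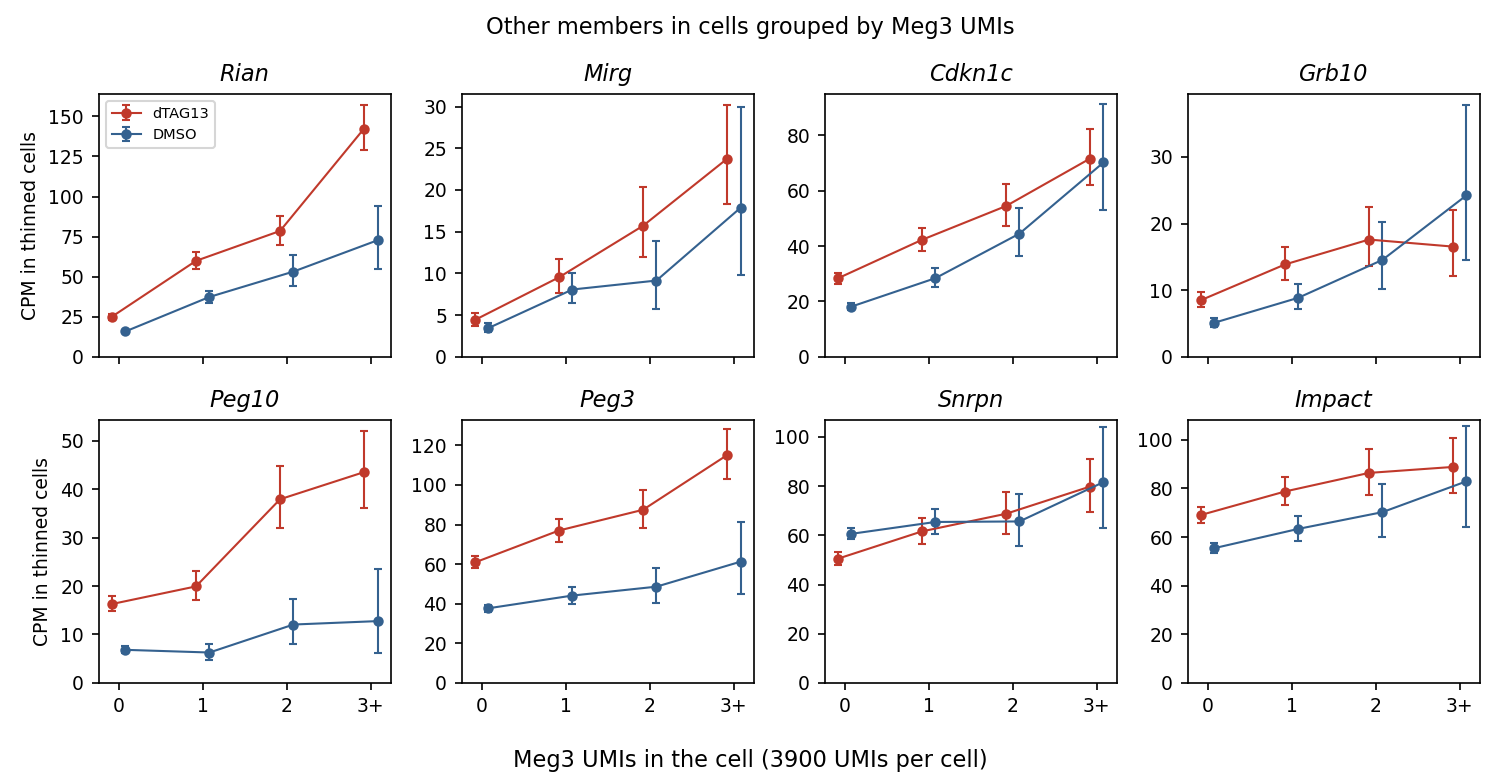
CPM of 8 other genes of the 10 in thinned cells with 0, 1, 2 or at least 3 Meg3 UMIs, for dTAG13 (red) and DMSO (blue), with exact Poisson 95% intervals. Rian climbs in both libraries, to 142 CPM with dTAG13 and 72.7 CPM with DMSO, and Cdkn1c climbs to 71.6 CPM with dTAG13 and 70.2 CPM with DMSO.

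The kept cells of both libraries were clustered together without the wider list's genes, so the clusters were not built on the values given here. In 22 groups of cells (1 cluster in 1 library, at least 50 cells each), Meg3 was lowest in the cluster led by Rhox9 and Rhox6 and highest, at 268 CPM each, in the dTAG13 cells of the clusters led by Sct and by Krt19. In the Rhox9 cluster it was at 30.5 CPM in 212 dTAG13 cells and 26.2 CPM in 3937 DMSO cells. In the cluster led by Ebf1 and Tcf15 it was at 208 CPM in 333 dTAG13 cells and 131 CPM in 2806 DMSO cells. Across the DMSO groups alone, Meg3 thus differed 4.98-fold. Rian had the same lowest and highest DMSO clusters, at 8.09 and 41.4 CPM.

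The proportion of Meg3 to Rian differed less between groups of cells than Meg3 itself. Over whole libraries there were 3.81 Meg3 UMIs per Rian UMI (3.68 to 3.94) with dTAG13 and 3.36 (3.21 to 3.51) with DMSO, intervals that do not overlap. In the 9 groups with at least 100 Rian UMIs the proportion lay between 3.10 and 4.16, while Meg3 itself differed 10.2-fold over all 22 groups. Groups with fewer Rian UMIs spread more widely: in the cluster led by histone genes the proportion was 4.005 (3.71 to 4.33) in dTAG13 cells and 2.02 (1.43 to 2.88) in DMSO cells, which had 51 Rian UMIs, and there Meg3 had a ratio of 2.005 (1.65 to 2.46) between libraries and Rian 1.01 (0.762 to 1.37). In the dTAG13 cells of the Rhox9 cluster it was 2.14 (1.25 to 3.79). Rian was also the gene with the pattern most like that of Meg3, with a Pearson correlation of log2(CPM + 1) of 0.90 over the 22 groups among 5008 genes, before Tcfl5 at 0.84 and Midn at 0.82. For Mirg, Gap43 came first at 0.81, then Meg3 at 0.73 and Rian at 0.72. The highest Mirg level among the groups, 17.6 CPM, rested on 2 UMIs in 62 DMSO cells, so that order is uncertain. These correlations describe groups that share 2 libraries and unequal depth.

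Other members followed other clusters. Over the 22 groups, Grb10 was highest in the dTAG13 cells of the Ebf1 cluster, at 39.5 CPM. In the DMSO cells of that cluster it was at 19.2 CPM. It was higher in the small DMSO groups led by Tesk1 (26.4 CPM, 3 UMIs) and by Chac1 (23.1 CPM, 11 UMIs). The Ebf1 cluster held 15.7% of DMSO cells and 42.8% of their Grb10 UMIs. Peg3 was lowest where Meg3 was not: in the cluster led by Mras, Peg3 was at 16.1 CPM in dTAG13 cells and 22.4 CPM in DMSO cells while Meg3 was at 143 and 102 CPM. In the Rhox9 cluster Peg3 was at 80.5 and 53.2 CPM. Snrpn stayed between 44.8 and 105 CPM over the 22 groups. The patterns most like Snrpn were those of Lin28a (0.74), Otud6b and Naf1, the most like Peg3 those of Bbx (0.86), Cldn6 and Zup1, and the most like Impact those of Lrrc42 (0.87), Rap1b and Zmynd8.

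One small cluster of 32 dTAG13 and 104 DMSO cells stood apart for Cdkn1c and Peg10. It was led by Plac1, Hand1, Krt18 and Krt8 and is called trophoblast-like from the markers Hand1, Krt18, Krt8 and Rhox6 among its 10 leading genes. Krt18 and Krt8 were also leading genes of the Krt19 cluster, and Rhox6 of the Rhox9 cluster. Most other trophoblast markers are not given for the small cluster, so its name is tentative. Cdkn1c was at 996 CPM there with dTAG13 (192 UMIs) and 447 CPM with DMSO (282 UMIs). Within the DMSO library this was 22.9 times (20.2 to 26.0) its level in all other cells, Peg10 was 48.7 times higher (41.3 to 57.3) and Peg3 5.36 times (4.47 to 6.37). Meg3, at 0.904 times its level elsewhere (0.651 to 1.22), and Snrpn, at 0.877 (0.607 to 1.23), had intervals that cover 1. In the dTAG13 cells of the cluster, Meg3 was lower than in all other dTAG13 cells, at 57.0 CPM (11 UMIs) against 169 CPM (ratio 0.337, 0.168 to 0.603), and Snrpn was at 83.0 CPM against 57.9 CPM (1.43, 0.818 to 2.33). H19 had few UMIs, but 7 were in the DMSO cells of the cluster and 14 in all other DMSO cells (ratio 92.4, 31.6 to 245). With dTAG13 it had 0 UMIs in the cluster and 19 in other cells. The cluster held 0.276% of dTAG13 cells and 0.582% of DMSO cells. With the cluster left out, the Peg10 ratio between libraries was 3.57 (3.28 to 3.90) and the Cdkn1c ratio 1.96 (1.86 to 2.07). Cdkn1c and Peg10 shared the gene most like them over the 22 groups, Gnas (0.91 and 0.85), itself an imprinted locus with products of both parental classes. Over those groups their medians were 23.8 and 8.03 CPM, against 447 and 298 CPM in the DMSO cells of this cluster. Correlations without that group were not computed.

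**Figure D4:**
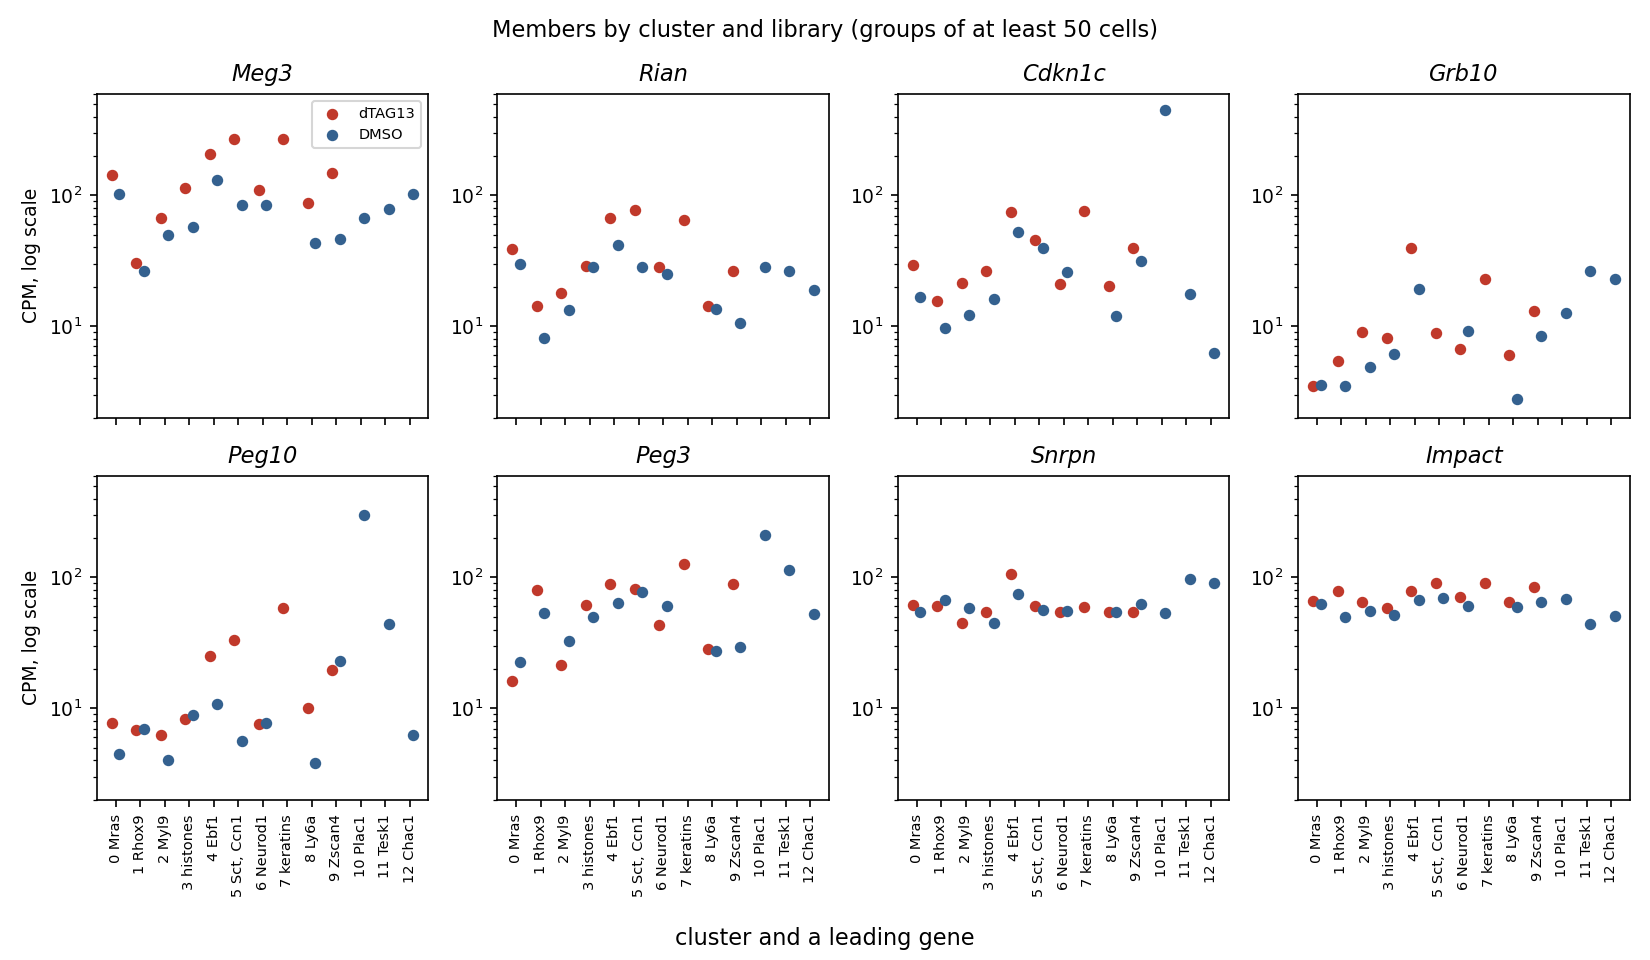
CPM on a log scale of 8 genes in each cluster for dTAG13 (red) and DMSO (blue) cells, for groups of at least 50 cells; points with 0 UMIs of a gene or outside the axis are not drawn, and each cluster is labelled with a leading gene. In DMSO cells Meg3 and Rian share their lowest cluster (Rhox9), Cdkn1c and Peg10 peak in the Plac1 cluster, and Snrpn and Impact vary less, by 2.35-fold and 2.07-fold over the 22 groups.

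A pair of clusters, found almost entirely in the dTAG13 library, held a large share of the members' UMIs. The cluster led by Sct and Ccn1 held 2999 dTAG13 and 120 DMSO cells, and that led by Krt19 and Krt18 held 1501 and 29. Together they made up 38.8% of dTAG13 cells and held 35.7% of its UMIs, but 56.6% of its Meg3, 57.0% of its Rian, 53.3% of its Cdkn1c, 70.3% of its Peg10 and 51.0% of its Peg3 UMIs. Their share of Snrpn UMIs was 37.0%, close to their share of all UMIs. The keratin cluster was also deep, with a median of 8811 UMIs in its dTAG13 cells against 7072.5 for the library, and no doublet caller was run, so doublets may be among its cells.

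Without those clusters, in 7088 dTAG13 and 17729 DMSO cells, 1 member, Meg3, stayed at least 1.5-fold higher with dTAG13, at 114 CPM and 73.2 CPM (ratio 1.56, 1.51 to 1.61). Peg10 was then at 10.6 CPM with dTAG13 and 7.56 CPM with DMSO (1.41, 1.27 to 1.56), Peg3 at 54.9 and 39.6 CPM (1.39, 1.32 to 1.45), Grb10 at 8.78 and 6.37 CPM (1.38, 1.23 to 1.54), Cdkn1c at 29.3 and 21.5 CPM (1.36, 1.28 to 1.45) and Rian at 29.7 and 21.9 CPM (1.36, 1.28 to 1.44). Mirg, at 5.07 and 4.55 CPM, had an interval that covers 1 (0.962 to 1.28). This setting was chosen after the data were seen, and the share of all genes past 1.5-fold was not computed in it. In the 29 DMSO cells of the Krt19 cluster, Meg3 was at 246 CPM (60 UMIs) and Peg10 at 73.7 CPM (18 UMIs). Its dTAG13 cells had 268 and 58.8 CPM. In the 120 DMSO cells of the Sct cluster, Meg3 was at 84.3 CPM and Peg10 at 5.62 CPM (3 UMIs), beside 268 and 33.2 CPM in its dTAG13 cells. Whether a cluster found almost entirely in 1 library is a cell state or belongs to that library was not tested.

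Within clusters that held at least 50 cells of each library, 9 in all, Meg3 was higher with dTAG13 in 9, and in 8 of them the interval lay above 1; the ratios ran from 1.16 to 3.21 with a median of 1.59. Rian was higher in 9 of 9, with 3 intervals above 1, Impact in 9 with 2, Cdkn1c in 8 with 4 and Grb10 in 7 with 2. Mirg, the other Meg3 cluster gene, was higher in 5 of 9, with 1 interval above 1 and ratios from 0.479 to 2.21 (median 1.13). Peg3 was higher in 6, with 3 intervals above 1 and 2 below it: in the cluster led by Neurod1 it was at 43.1 CPM with dTAG13 and 60.0 CPM with DMSO (ratio 0.718, 0.592 to 0.878). Peg10 was higher in 5 of 9, with intervals above 1 in the Sct cluster (5.91, 2.01 to 28.7), where DMSO cells had 3 UMIs, and in the Ebf1 cluster, where it was at 25.2 CPM with dTAG13 and 10.9 CPM with DMSO (2.32, 1.71 to 3.10). Snrpn was higher in 4 of 9.

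Cell cycle phase, called per cell from S and G2/M gene lists, differed between the libraries: 16.7% of thinned dTAG13 cells and 1.28% of DMSO cells were called G1. Free RNA enters such calls, and of these cells 1638 of 1804 dTAG13 but 26 of 207 DMSO cells were in the Sct cluster, so G1 sets unlike cells side by side. Meg3 in cells called G1 was at 294 CPM with dTAG13 and 58.2 CPM with DMSO (ratio 5.05, 3.78 to 6.89), in S at 133 and 64.8 CPM (2.06, 1.86 to 2.27), and in G2 or M at 142 and 73.5 CPM (1.93, 1.85 to 2.02). Within dTAG13, Meg3 was thus highest in G1. Rian followed, with ratios of 4.79 (2.83 to 8.82), 1.75 (1.47 to 2.09) and 1.76 (1.61 to 1.92). Cdkn1c did not: in G1 it was at 48.5 CPM with dTAG13 and 54.5 CPM with DMSO (0.889, 0.648 to 1.25), and in G2 or M at 34.7 and 21.1 CPM (1.64, 1.51 to 1.79). Impact had its highest ratio in G1, 1.85 (1.36 to 2.57), with 1.15 in S and 1.18 in G2 or M.

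**Figure D5:**
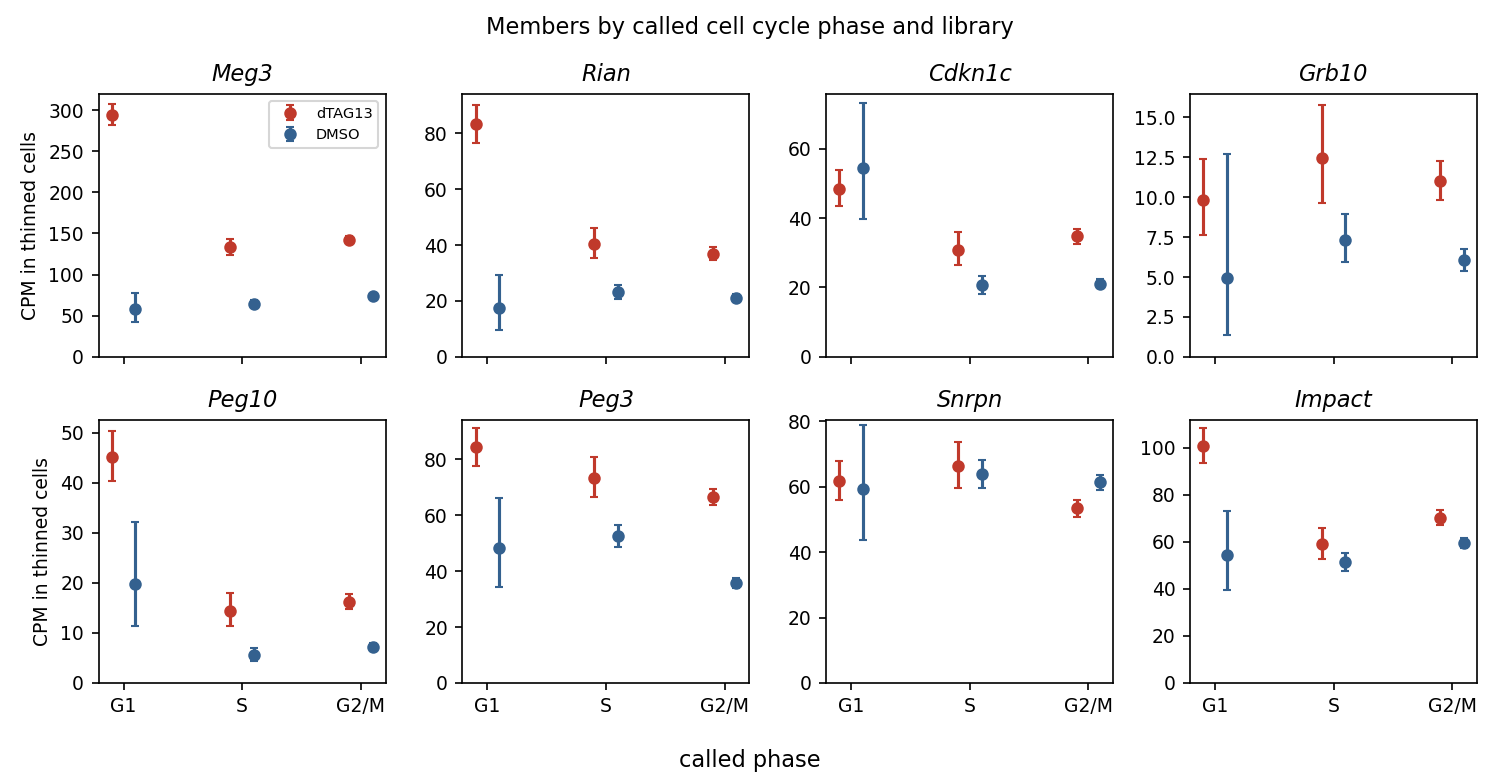
CPM of 8 genes in thinned cells called G1, S and G2 or M, for dTAG13 (red) and DMSO (blue), with exact Poisson 95% intervals. Meg3 stands at 294 CPM in dTAG13 G1 cells and 58.2 CPM in DMSO G1 cells, while Cdkn1c and Snrpn intervals of the libraries overlap in G1.

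Cells were last grouped by the UMIs of naive pluripotency markers and of p53 target genes, which differ between the libraries, with limits that cut the DMSO cells into low, middle and high groups. At low naive marker UMIs, Meg3 was at 190 CPM with dTAG13 and 81.6 CPM with DMSO, and at high ones at 130 and 64.8 CPM. Peg10 was at 28.1 and 10.9 CPM at low naive UMIs, and at 6.21 and 4.67 CPM at high ones, where the interval of the ratio (0.871 to 1.999) covers 1. Peg3 was at 84.7 and 49.1 CPM at low naive UMIs and at 37.4 and 30.7 CPM at high ones. In cells with few p53 target UMIs (299 dTAG13, 8503 DMSO cells) Meg3 was still higher with dTAG13, at 114 CPM and 68.8 CPM (ratio 1.66, 1.38 to 1.97), while Cdkn1c was at 15.4 and 17.9 CPM (0.860, 0.506 to 1.37). In cells with many (10173 and 4936 cells) Meg3 was at 169 and 71.3 CPM (2.37, 2.24 to 2.52) and Cdkn1c at 36.6 and 27.5 CPM (1.33, 1.21 to 1.48). Snrpn ratios lay between 0.839 and 0.963 in all 6 groups. Cell numbers in these groups are unequal between libraries, and what depth, free RNA and cluster make-up add was not tested.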

How the data were processed

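Single cells of 1 dTAG13 and 1 DMSO library were analysed. Raw UMI counts per gene and barcode were deposited by the authors; the file headers name Cell Ranger 8.0.1, and the deposited barcode and gene tables are other fields, used as labels. The submitters' processing notes name the build mm10 and, with no role, Seurat 5.0.1 and R 4.3.2. Of 33696 gene identifiers, 1735 (5.15%) are absent from GENCODE M21, so the annotation behind the counts is not settled; intron counting and strand are not given in the sources used here, and overlapping genes cannot be told apart. For 26 symbols with 2 identifiers, counts were summed.

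UMIs of kept cells (11588 dTAG13, 17878 DMSO) were summed and scaled to CPM with Python 3.11.15, numpy 2.4.6 and scipy 1.17.1. CPM has exact Poisson intervals, ratios exact conditional binomial intervals and shares exact Clopper-Pearson intervals, all at 95%. The ratio interval was run on simulated Poisson counts, which lack the added scatter between cells. That run therefore checks the code only, not whether the intervals hold for these data. Per-cell measures used cells thinned to 3900 UMIs, with a fixed random seed. Clustering (scanpy 1.11.5, leidenalg 0.10.2, 2000 variable genes, 30 components, 15 neighbours, resolution 1) left out the wider imprinted list, and no doublets were removed. No integration was applied. edgeR 4.0.16 (in R 4.3.3) gave TMM factors only.

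The members and lists were chosen with earlier results of these data known. All 10 members were named. From the wider list the rule took the 4 genes with the largest absolute log2 ratio in each parental class at 5 CPM or more (members included), and from the imprint maintenance list the 4 largest at 10 CPM or more. For each member it took the 3 genes most like it by correlation over groups of at least 50 cells, among genes with at least 20 CPM. Igf2r and Kcnq1ot1 were added after their values were seen. Of the wider list, 58 of 59 genes were matched. Alternatives covered cell filters, scaling, thinning, phase, minimum CPM, cluster resolution and cells left out.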

Additional observations from a re-analysis of the deposited data

How the results depend on the processing

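Each alternative changed 1 choice, except that phases were called and summed in thinned cells. No paired analysis was possible because each group is 1 library, and for the same reason no replicate could be left out. Scaling by median of ratios or TMM lowers every log2 ratio by 0.15 or 0.12. The median log2 ratio of the 9 measured genes (main 0.85) was 0.70 with median of ratios, 0.73 with TMM, 0.99 in cells called G1, 0.70 in S and 1.08 without the 1% of cells with the most UMIs of each gene. The maternal median (main 0.89) was 0.73 with median of ratios, 0.77 with TMM, 0.80 thinned, 1.14 in G1, 0.76 in S and 1.11 without the top 1% of cells. The paternal median (main 0.59) was 0.44 with median of ratios, 0.47 with TMM, 0.85 in G1 and 0.34 in S. Alternatives chosen after seeing the data left out the deepest 5% of cells (maternal median 0.80), the trophoblast-like cluster, or the Sct and Krt19 clusters. The last gave medians of 0.44 for the 9 genes and for the maternal genes and 0.31 for the paternal genes. It left 1 member at least 1.5-fold higher in place of 7. The share of all genes past that fold was not computed there, and the cause was not tested. For the wider list at 20 CPM or more, the median was 0.095 (main 0.41), with 6 of 18 genes at least 1.5-fold higher (main 10 of 26). With no minimum, 19 of 52 genes were as much higher. The share of all genes was not computed at these other levels. Directions turned for Cdkn1c in G1 cells (log2 ratio -0.17), for the Snrpn log2 ratio (main -0.08, but 0.05 in G1 and 0.06 in S), for H19 without the Sct and Krt19 clusters (-1.09, main 0.21, both intervals covering 0), for the paternal wider list median at 20 CPM or more (-0.039) and for the Snrpn share of cells without thinning (1.90 points higher with dTAG13, against 1.86 points lower thinned). Over 13 settings, the Meg3 log2 ratio lay between 0.64 and 2.34 and was past 1.5-fold in 13. Peg10 was past it in 12, Rian and Grb10 in 12, and Mirg, Cdkn1c and Peg3 in 11. At resolution 0.5, Meg3 was higher with dTAG13 in 6 of 6 clusters, 5 with intervals above 1. It was then highest in a cluster of 411 dTAG13 and 770 DMSO cells, at 299 and 223 CPM, so where Meg3 was highest depends on the resolution. Depth limits H19, whose direction cannot be read from 19 and 21 UMIs.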

Other observations

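Some other imprinted genes of the wider list also stood apart in the trophoblast-like cluster, the 104 DMSO cells led by Plac1 and Hand1. Phlda2, a maternally expressed gene that limits placental growth and lies near Cdkn1c, was at 439 CPM there and 60.3 CPM in all other DMSO cells, a ratio of 7.28 (6.43 to 8.21). Ascl2, needed for trophoblast, was at 31.7 and 0.609 CPM, from 20 UMIs in the cluster. The paternally expressed Slc38a4, an amino acid transporter gene, was at 228 and 64.9 CPM (3.52, 2.96 to 4.15), and Sfmbt2, a Polycomb-like gene needed for the placenta, at 111 and 27.9 CPM (3.98, 3.09 to 5.04). In the 32 dTAG13 cells of the cluster, Phlda2 was at 1431 CPM, against 55.9 CPM in the other dTAG13 cells. Ascl2 was at 98.5 CPM (19 UMIs) and 5.73 CPM (525 UMIs) in the same 2 sets, so most dTAG13 Ascl2 UMIs lay outside the cluster. Over the whole libraries Phlda2 was at 58.8 CPM with dTAG13 and 62.4 CPM with DMSO. Ascl2 is on the marker list for trophoblast, so its level there is not independent of that name. These genes were chosen after their values were seen.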
